A study of Mus musculus with 16 samples.

Results

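The genes described are 8 receptors for steroid and peptide hormones, *Esr1*, *Esr2*, *Pgr*, *Nr3c1*, *Nr3c2*, *Prlr*, *Ghr* and *Lepr*, in the vomeronasal organ (VNO) of mice bred for voluntary wheel running. They were chosen by symbol from the 24340 genes with both counts and RPKM (reads scaled for gene length and library size) by what they encode, with earlier results of these data known. RNA was sequenced from 16 libraries, and each held the VNOs of 3 mice of 1 sex and 1 line. The 4 High Runner (HR) lines, 3, 6, 7 and 8, descend from mice selected over generations for wheel running, and the 4 Control lines, 1, 2, 4 and 5, from mice bred without selection. All 8 lines come from the outbred Hsd:ICR stock, and the mice were 12 weeks old and from generation 88. Each line gave 1 male and 1 female pool, so animals within a pool cannot be told apart and lines are the replicates of a linetype.

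Steroid hormones cross the cell membrane and bind receptors that act as transcription factors. *Esr1* and *Esr2* encode the oestrogen receptors alpha and beta, *Pgr* the progesterone receptor, *Nr3c1* the glucocorticoid receptor and *Nr3c2* the mineralocorticoid receptor. Prolactin, growth hormone and leptin stay outside the cell and bind class I cytokine receptors, encoded by *Prlr*, *Ghr* and *Lepr*, which signal through Janus kinases and STAT proteins. The VNO detects pheromones, and its sensory neurons lie beside a large blood vessel, smooth muscle, glands and supporting tissue, so a bulk library reads all of these together.

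*Esr1* spans chr10:4611593-5005614 on the plus strand of GRCm38, *Esr2* chr12:76120419-76177259 on the minus strand and *Pgr* chr9:8899833-8968611 on the plus strand. *Nr3c2* lies at chr8:76899442-77245012 on the plus strand. *Prlr* lies at chr15:10177238-10349180 on the plus strand, *Ghr* at chr15:3317760-3583492 on the minus strand and *Lepr* at chr4:101717404-101815352 on the plus strand. All 8 are protein-coding genes with 4 to 12 annotated transcripts. *Prlr* shares exon bases with Gm21973 on the same strand, so reads there could belong to either, and *Nr3c2* with Gm10649 on the other strand.

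*Esr1*, *Ghr* and *Lepr* differed among the 8 lines and rose and fell together, so a window before a start site of each is printed. The windows cover the 250 bases before a RefSeq start (GRCm38.p6) without the last 3, are written 5′ to 3′ on the strand of the gene and hold no annotated exon. Both strands were searched for the half-site of oestrogen and related receptors, AGGTCA. The half-site shared by the glucocorticoid and progesterone receptor group was searched as AGAACA and the site that STAT proteins bind as TTCNNNGAA. The motif of the Sp1 family was searched as GGGCGG, the site of the TATA-binding protein as TATAAA, and the E-box as CANNTG. Capitals mark matches to any but the E-box.
Esr1 at its second start, chr10:4709908-4710154 (plus strand): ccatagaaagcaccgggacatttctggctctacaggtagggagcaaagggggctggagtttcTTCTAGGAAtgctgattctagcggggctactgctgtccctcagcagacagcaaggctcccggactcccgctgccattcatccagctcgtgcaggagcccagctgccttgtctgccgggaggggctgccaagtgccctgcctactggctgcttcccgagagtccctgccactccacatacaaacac
Ghr at its second start, chr15:3581846-3582092 (minus strand): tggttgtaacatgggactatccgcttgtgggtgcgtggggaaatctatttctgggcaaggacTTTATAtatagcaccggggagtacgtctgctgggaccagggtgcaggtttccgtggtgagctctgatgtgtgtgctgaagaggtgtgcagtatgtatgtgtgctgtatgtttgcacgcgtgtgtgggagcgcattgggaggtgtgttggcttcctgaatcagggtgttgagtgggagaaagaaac
Lepr at its first start, chr4:101717157-101717403 (plus strand): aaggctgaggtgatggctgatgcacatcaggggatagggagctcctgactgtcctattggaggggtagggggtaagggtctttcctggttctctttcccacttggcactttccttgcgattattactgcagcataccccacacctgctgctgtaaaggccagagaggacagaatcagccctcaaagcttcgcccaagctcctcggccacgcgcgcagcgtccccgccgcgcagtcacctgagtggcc
The *Esr1* window held TTCNNNGAA at -188, a match found in 6.94% of the 32851 windows of this length, and 2 E-boxes. The *Ghr* window held TATAAA on the opposite strand at -188, a motif found on either strand and at any position in 12.3% of windows. The *Lepr* window held none of the first 5 motifs and 3 E-boxes, a motif in 65.9% of windows. AGGTCA (13.9% of windows), AGAACA (15.9%) and GGGCGG (32.3%) were in none of the 3 windows. The window at the other start of each gene holds an annotated exon and is not printed. There GGGCGG had 2 matches for *Ghr*, 1 for *Lepr* and 0 for *Esr1*. The matches describe letters in these windows and nothing about a factor. The GC content of the printed windows was 59.9% for *Esr1*, 52.2% for *Ghr* and 58.7% for *Lepr*, beside a median of 52.2% over all windows. RefSeq windows were found for 7 of the 8 receptors by symbol, the exception being *Nr3c1*.

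Gene counts summed to between 15998552 and 70875276 in a library, and the median library had 37366329. The female pool of Control line 5 had the fewest counts and the lowest median correlation with the other libraries across genes (0.951, against 0.964 to 0.977), and values without it are given beside results that moved with it. Of 5 markers of mature vomeronasal sensory neurons (VSNs), *Omp*, *Gnao1*, *Gnai2* and *Calr4* were counted, with summed levels of 2688 to 5153 CPM, and *Trpc2* was listed at 0 counts in all 16 libraries. Levels are given in CPM (counts divided by the TMM-normalized library size) for comparisons of 1 gene between libraries and in RPKM for comparisons between genes.

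Scaled for length, the receptors ranged over more than 2 orders of magnitude, with the glucocorticoid receptor highest and oestrogen receptor beta near the limit of detection. *Nr3c1* stood at 11.4 ± 1.15 RPKM (SD of line means, n = 8 lines), *Ghr* at 5.38 ± 1.78 and *Nr3c2* at 4.21 ± 0.522. *Lepr* followed at 1.34 ± 0.706 RPKM, *Pgr* at 0.51 ± 0.0964, *Prlr* at 0.329 ± 0.0453, *Esr1* at 0.317 ± 0.157 and *Esr2* at 0.0446 ± 0.0246. Among 24350 genes with RPKM, 71.4% lay below *Nr3c1*, 45% below *Lepr* and 27.6% below *Esr2*.

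Neighbours in this order were compared within each library on log2(RPKM + 0.1), and the male and female differences of a line were averaged. In 5 of the 7 neighbouring pairs the difference had the same sign in 8 of 8 lines, with p = 0.00781 in an exact permutation test that flips signs over lines (two-sided), the smallest p that 8 lines allow. The order was taken from the same RPKM values, and these p were not adjusted over the 7 pairs. The glucocorticoid receptor exceeded *Ghr* by 1.14 ± 0.323 log2 units (SD, n = 8) and was higher in 16 of 16 libraries. *Lepr* exceeded *Pgr* by 1.09 ± 0.798, and *Pgr* exceeded *Prlr* by 0.49 ± 0.249, each in 15 of 16 libraries. *Ghr* and *Nr3c2* could not be ordered, since *Ghr* was higher in 6 of 8 lines by a mean of 0.28 ± 0.467 (exact permutation p = 0.133). *Prlr* was higher than *Esr1* in 5 of 8 lines, by 0.12 ± 0.519 (exact permutation p = 0.508). The differences of these 2 pairs were smaller than their spread between lines. The plot of length-scaled levels shows each receptor's 16 values.

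**Figure D1:**
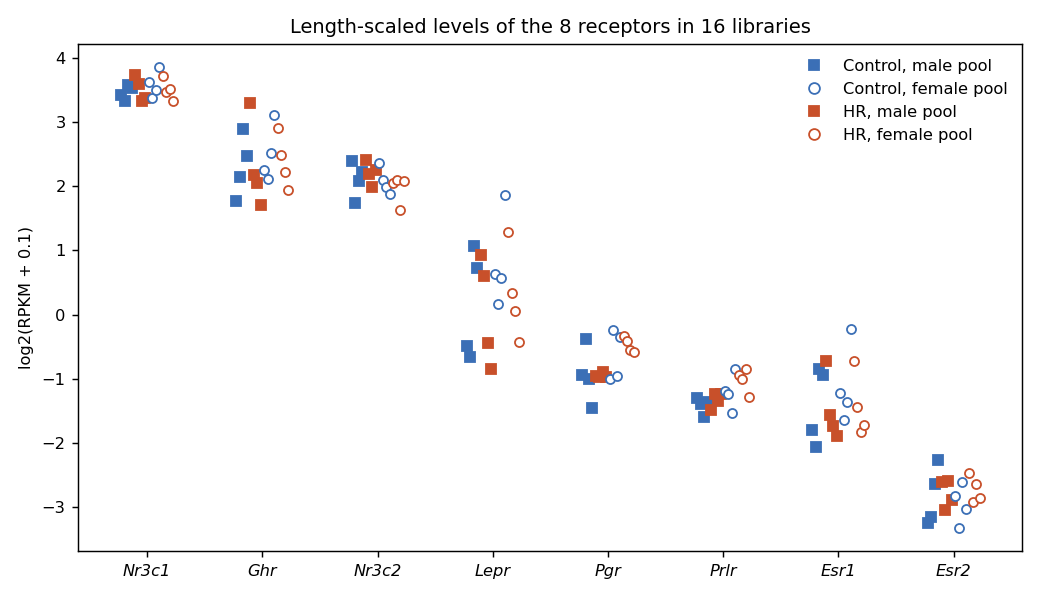
Levels of the 8 receptors on the log2(RPKM + 0.1) scale, ordered by mean RPKM, with each point 1 library, colour for linetype and filled squares for male pools. *Nr3c1* lies above all other receptors in every library, *Lepr* and *Esr1* spread widely, and the ranges of *Ghr* and *Nr3c2* and of *Prlr* and *Esr1* overlap.

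The oestrogen receptors had the lowest mean levels per length. *Esr1* was read by 25 to 133 counts per library. It stood at 1.12, 0.857, 2.74 and 2.52 CPM in the male pools of Control lines 1, 2, 4 and 5 and at 1.85, 1.29, 1.54 and 4.34 CPM in their female pools. In HR lines 3, 6, 7 and 8 it stood at 3.03, 1.40, 1.22 and 1.09 CPM in males and at 2.90, 1.61, 1.07 and 1.16 CPM in females. HR line 3 and Control line 5 were thus high in both sexes, HR lines 7 and 8 and Control line 2 were low in both, and the linetypes overlapped. *Esr2* had 0 to 9 counts per library and did not pass the filter on low counts. Its line means ran from 0.0186 to 0.241 CPM in Control lines and from 0.0912 to 0.205 CPM in HR lines, so the linetypes overlapped here too. In the female pool of Control line 2 it had 0 counts, which allows up to 3 counts or 0.155 CPM, covering counting error only. The highest level was in the male pool of Control line 5 (9 counts, 0.355 CPM), and differences of *Esr2* among lines were not tested in the main edgeR fit.

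The progesterone receptor was read by 45 to 249 counts per library. *Pgr* stood at 2.86, 4.64, 2.68 and 1.77 CPM in the male pools of Control lines 1, 2, 4 and 5 and at 2.58, 4.95, 2.76 and 4.53 CPM in the female pools. In HR lines 3, 6, 7 and 8 it stood at 3.00, 2.79, 3.21 and 2.90 CPM in males and at 4.70, 4.32, 3.96 and 3.80 CPM in females. The HR lines were close together, with line means of 3.35 to 3.85 CPM, inside the Control range of 2.72 to 4.79 CPM.

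The 2 corticosteroid receptors were the steroid receptors with the highest levels and the smallest relative spread. *Nr3c1* stood at 63.7, 60.6, 71.8 and 69.4 CPM in the male pools of Control lines 1, 2, 4 and 5 and at 71.4, 60.3, 65.1 and 83.5 CPM in the female pools. HR lines 3, 6, 7 and 8 had 80.4, 72.1, 61.4 and 62.9 CPM of it in males and 75.6, 63.7, 65.9 and 58.3 CPM in females. Its coefficient of variation over line means was 9.7%, lower than the median of 13.3% over the 16507 genes tested, and the linetypes overlapped almost completely. *Nr3c2* had line means of 14.4 to 20.0 CPM in Control lines and 13.6 to 18.2 CPM in HR lines, with a coefficient of variation of 12.3%. Its male pools ranged from 13.0 to 20.8 CPM and its female pools from 11.5 to 19.5 CPM.

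Among the peptide hormone receptors, *Ghr* and *Lepr* had their 3 highest line means in the same lines as *Esr1*, HR line 3 and Control lines 4 and 5. *Ghr* stood at 10.9, 13.6, 23.5 and 17.1 CPM in the male pools of Control lines 1, 2, 4 and 5 and at 14.4, 13.9, 17.9 and 28.6 CPM in the female pools. In HR lines 3, 6, 7 and 8 it stood at 29.7, 14.2, 12.5 and 9.66 CPM in males and at 24.9, 15.9, 14.5 and 11.6 CPM in females. Line means were highest in HR line 3 (27.3 CPM) and lowest in HR line 8 (10.6 CPM), a 2.57-fold range that lies within 1 linetype.

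*Lepr* had the widest fold range of the 7 receptors that passed the filter. It stood at 3.12, 2.81, 10.4 and 8.04 CPM in the male pools of Control lines 1, 2, 4 and 5 and at 7.30, 5.0, 7.01 and 18.5 CPM in the female pools. In HR lines 3, 6, 7 and 8 it stood at 9.57, 7.66, 3.53 and 2.43 CPM in males and at 12.2, 5.87, 4.80 and 3.23 CPM in females. The line mean of Control line 5 (13.3 CPM) was 4.68-fold that of HR line 8 (2.83 CPM), and the coefficient of variation of 53% exceeded that of 93.8% of the genes tested. For *Esr1* it was 48.6% and for *Ghr* 34.3%, above 92.3% and 84.3% of the genes tested. With Control line 5 represented by its male pool alone, the fold range of *Lepr* was 3.85, from HR line 8 to HR line 3, and the coefficients of variation were 43.9% for *Lepr*, 41.0% for *Esr1* and 32.9% for *Ghr*.

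*Prlr* followed another order. It was read by 63 to 220 counts per library and stood at 3.05, 2.87, 2.21 and 2.92 CPM in the male pools of Control lines 1, 2, 4 and 5 and at 3.05, 3.25, 2.25 and 4.40 CPM in the female pools. In HR lines 3, 6, 7 and 8 it stood at 2.55, 3.19, 2.77 and 3.21 CPM in males and at 4.00, 3.75, 3.54 and 2.96 CPM in females. Control line 4, among the high lines for *Ghr* and *Lepr*, was the lowest line for *Prlr* in both sexes. The plot of levels by line sets the 8 receptors side by side.

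**Figure D2:**
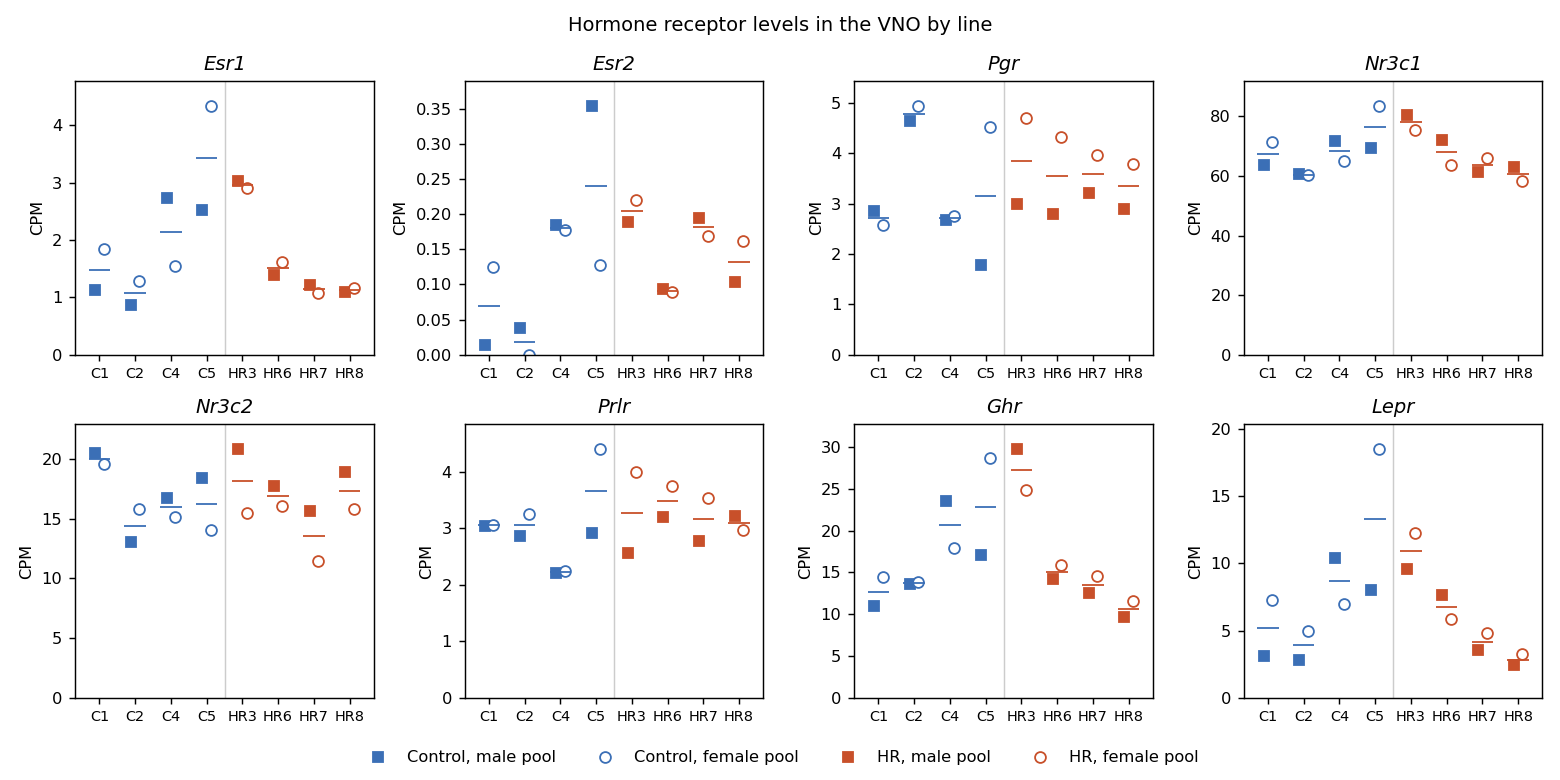
CPM of each receptor in the male pool (filled square) and female pool (open circle) of Control lines (C) and HR lines, with a bar at the mean of the 2 pools. For *Esr1*, *Ghr* and *Lepr* the lines HR 3, Control 4 and Control 5 had the 3 highest means, and for each receptor the linetypes overlap.

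The comparison of HR with Control lines asked whether receptor expression in the VNO differs with the breeding history. None of the 7 receptors tested had an adjusted p under 0.05 by the quasi-likelihood test of edgeR, in which sex was a covariate, beside 4 of 16507 genes (0.0242%), and none had an unadjusted p under 0.05, beside 3.3% of genes. DESeq2, limma on log2 RPKM, limma-voom with a random effect of line and sums of the 2 pools of a line also gave 0 calls among the receptors, adjusted or not. The fitted log2 fold changes of HR against Control were -0.25 (SE 0.34) for *Esr1*, 0.09 (0.18) for *Pgr*, -0.01 (0.08) for *Nr3c1* and -0.02 (0.11) for *Nr3c2*. For the peptide hormone receptors they were 0.12 (0.13) for *Prlr*, -0.07 (0.25) for *Ghr* and -0.30 (0.40) for *Lepr*, and the adjusted p from edgeR was 0.9997 for each receptor. The 95% confidence intervals of this fit count the 2 pools of a line as separate libraries, and they are narrower than those from line sums. For *Nr3c1* the interval ran from 0.88-fold to 1.12-fold, and for *Nr3c2* from 0.838-fold to 1.16-fold. For *Lepr* it ran from 0.455-fold to 1.46-fold and for *Esr1* from 0.507-fold to 1.40-fold. For *Lepr*, a change of the size of 1.4 times in either direction thus could not be told from none, even by this fit. From line sums, the log2 intervals were -1.39 to 0.85 for *Lepr*, -1.23 to 0.80 for *Esr1* and -0.236 to 0.213 for *Nr3c1*. The fitted sign of *Ghr* turned to 0.07 without the female pool of Control line 5, *Lepr* then stood at -0.03, and without all of Control line 5 *Lepr* stood at 0.06.

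Line means gave the same picture without the shared fit. Mean log2 CPM of HR minus Control lines was -0.21 for *Esr1*, 0.45 for *Esr2*, 0.15 for *Pgr* and -0.29 for *Lepr*, and it was 0.13 or smaller in size for the other 4. Exact two-sided permutation over the 8 lines gave p of 0.457 to 0.943 for the 8 receptors, where 70 arrangements allow a smallest p of 0.0286. The HR and Control line means overlapped for 8 of 8 receptors, beside 0.8% of genes tested whose linetypes do not overlap.

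In males alone and in females alone, no receptor passed the test of edgeR or of DESeq2, with or without adjustment. Unadjusted p under 0.05 were found for 1.12% of genes in males and 1.94% in females, and adjusted p under 0.05 for 0.0% in each. *Lepr* stood at a log2 fold change of -0.07 (SE 0.57) in males and -0.52 (SE 0.50) in females, and *Esr1* at -0.10 (0.49) and -0.40 (0.47). Without Control line 5 the female values were 0.01 (SE 0.43) for *Lepr* and 0.09 (0.39) for *Esr1*. The interaction of sex and linetype tests the difference between these values directly, and it was passed by no receptor in edgeR or DESeq2, with or without adjustment, beside 0.46% of genes at an unadjusted p under 0.05. For *Lepr* the interaction was -0.46 (SE 0.80) and for *Esr1* -0.32 (SE 0.71), and without the female pool of Control line 5 they were 0.08 (0.77) and 0.19 (0.66). This fit did not pair the 2 pools of a line. With line as a block the interaction was -0.47 (SE 0.40) for *Lepr* and -0.30 (SE 0.37) for *Esr1*. In that fit 0 of 7 receptors had an unadjusted p under 0.05 by edgeR, beside 361 of 17181 genes. The plot of HR against Control shows these intervals.

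**Figure D3:**
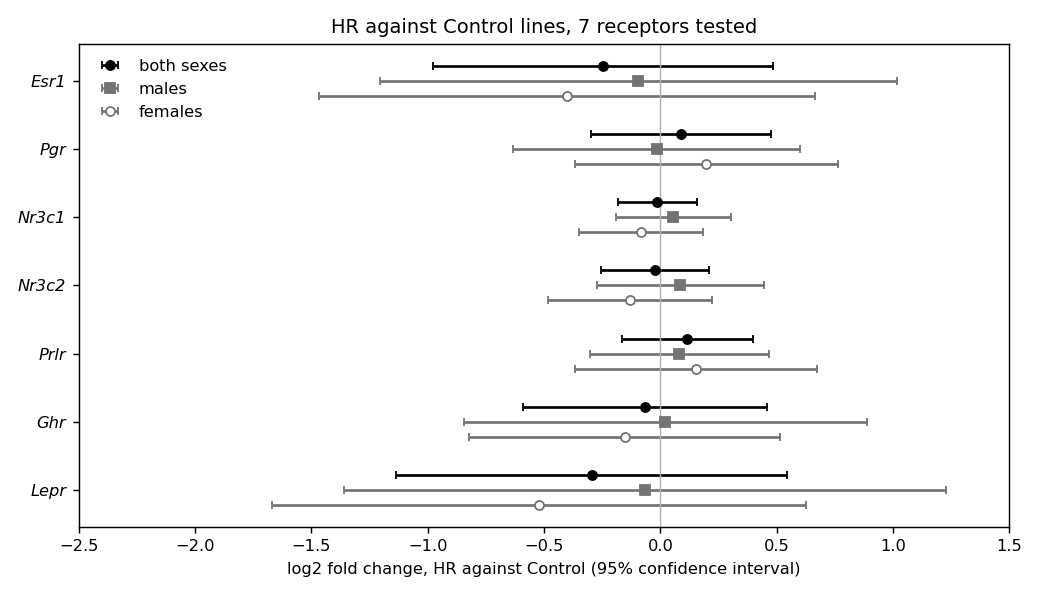
Log2 fold change of HR against Control lines with its 95% confidence interval (edgeR) for both sexes together, for males and for females. Every interval covers 0, and the intervals are widest for *Lepr* and *Esr1* and narrowest for *Nr3c1*.

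Differences among the lines were tested next. With 7 line terms tested together and sex as a covariate, *Ghr* (adjusted p = 0.0109), *Lepr* (0.0185) and *Esr1* (0.0234) differed among the 8 lines in edgeR's test, 3 of the 7 receptors, beside 25.6% of the 17181 genes tested. Differences among lines were thus common across the genes tested. DESeq2 called 4 of the 8 receptors, adding *Nr3c1* (adjusted p = 0.0446), beside 32.8% of genes. With *Nr3c1* (unadjusted p = 0.0466 and adjusted p = 0.113 by edgeR), 4 of the 7 had an unadjusted p under 0.05, beside 42.3% of genes, and the adjusted p of *Nr3c2* (0.169), *Pgr* (0.318) and *Prlr* (0.335) lay further from the threshold. When lines were compared within their linetype, *Lepr* (adjusted p = 0.0149 by edgeR), *Ghr* (0.00809) and *Esr1* (0.0184) again differed. Without HR line 8, the line with the lowest *Lepr* and *Ghr*, only *Ghr* remained past the threshold (adjusted p = 0.0359), while *Esr1* had 0.0519 and *Lepr* 0.0643, and the share of all genes called fell to 14.9%. Without the female pool of Control line 5, *Esr1* had an adjusted p of 0.0507 and 23.3% of all genes were called. In bulk libraries, a lower level may come from fewer cells of a type or from less RNA per cell, and these cannot be told apart. Reads that cross a base at which a line differs from the reference were also lost in alignment, and the part of this loss was not tested.

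Agreement of the male and female pool of a line was a further measure, since the pools hold different mice. Over 8 lines, male and female log2 CPM of *Ghr* had a Pearson r of 0.759 (exact permutation p = 0.0316, adjusted over 16507 genes 0.151) and a Spearman rho of 0.857 (exact permutation p = 0.0107, adjusted 0.127). It was the 1 receptor with an unadjusted p of r under 0.05, beside 27.1% of genes. *Esr1* had an r of 0.701 (exact permutation p = 0.0517, adjusted 0.187) and a rho of 0.571 (p = 0.151, adjusted 0.354). *Lepr* had an r of 0.689 (exact permutation p = 0.058, adjusted 0.198) and a rho of 0.667 (p = 0.0831, adjusted 0.265). Without the 2 lines farthest from the median of the male values, r was 0.855 for *Ghr*, 0.869 for *Esr1* and 0.699 for *Lepr*. No receptor passed the adjusted threshold, beside 2.35% of genes, and the median r over all genes tested was 0.508. The lowest r belonged to *Pgr* (0.169), and *Prlr* had an r of 0.425, a rho of 0.00 and an r of -0.30 without 2 lines.

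The receptors that varied among lines moved with markers of other tissues. Summed levels of 4 smooth muscle markers (*Acta2*, *Myh11*, *Tagln*, *Cnn1*) ran from 151 to 924 CPM over HR lines and from 277 to 1107 CPM over Control lines, and 1 of 4 was called among lines. Those of 5 endothelial markers (*Pecam1*, *Cdh5*, *Kdr*, *Tek*, *Emcn*) ran from 30.2 to 75.6 CPM over HR lines and from 46.1 to 84.4 CPM over Control lines, with 5 of 5 called. Those of 4 fibroblast markers (*Col1a1*, *Dcn*, *Lum*, *Pdgfra*) ran from 604 to 1815 CPM and from 712 to 1592 CPM, with 4 of 4 called. None of these 13 markers was at 0. The sum of the VSN markers ran from 3336 to 5023 CPM over HR lines and from 3333 to 4766 CPM over Control lines, and 1 of the 4 tested was called among lines (*Gnai2*).

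Each of the 7 receptors was set against each of 13 marker lists over the 8 line means, 91 pairs in all. *Lepr* fell as the VSN sum rose, with an r of -0.979 (exact permutation p = 4.96e-05, adjusted 0.00451) and a rho of -0.976 (p = 0.000397, adjusted 0.0208). That r was -0.97 without the 2 lines farthest from the median, -0.963 over the 8 male libraries and -0.977 over the 8 female libraries. *Lepr* rose with the smooth muscle sum, with an r of 0.971 (exact permutation p = 0.000149, adjusted 0.00677), a rho of 0.929 (p = 0.00223, adjusted 0.029), an r of 0.931 without 2 lines, 0.947 in males and 0.95 in females.
*Ghr* rose most closely with smooth muscle, with an r of 0.965 (exact permutation p = 0.000471, adjusted 0.00774), a rho of 0.952 (p = 0.00114, adjusted 0.0208), an r of 0.967 without 2 lines, 0.848 in males and 0.881 in females. With fibroblasts its r was 0.946 (exact permutation p = 0.000694, adjusted 0.0079), its rho 0.952 (p = 0.00114, adjusted 0.0208), and its r 0.97 without 2 lines, 0.951 in males and 0.865 in females. *Esr1* fell with the VSN sum, with an r of -0.956 (exact permutation p = 0.000322, adjusted 0.00774), a rho of -0.952 (p = 0.00114, adjusted 0.0208), an r of -0.834 without 2 lines, -0.923 in males and -0.936 in females.

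*Nr3c1* showed the same relation with a much smaller range of its own. Its r with the VSN sum was -0.968 (exact permutation p = 0.000496, adjusted 0.00774), its rho -0.929 (p = 0.00223, adjusted 0.029), and its r -0.9 without 2 lines, -0.97 in males and -0.949 in females. Of the 13 lists, adjusted p of r were under 0.05 for 4 with *Esr1*, 4 with *Nr3c1*, 4 with *Ghr*, 5 with *Lepr* and 0 with *Pgr*, *Nr3c2* and *Prlr*. By adjusted p of rho the numbers were 2 for *Esr1*, 1 for *Nr3c1*, 3 for *Ghr*, 4 for *Lepr* and 0 for the other 3. The remaining lists with an adjusted p of r under 0.05 were endothelium for these 4 receptors (r of 0.895 to 0.942), smooth muscle for *Esr1* and *Nr3c1* (0.947 and 0.908), fibroblasts for *Lepr* (0.865) and ciliated respiratory epithelium for *Esr1*, *Nr3c1* and *Lepr* (0.912 to 0.934), besides VSNs for *Ghr* (-0.927). Of these, endothelium with *Nr3c1* and *Ghr*, smooth muscle with *Esr1* and *Nr3c1*, fibroblasts with *Lepr* and ciliated epithelium with *Esr1* and *Nr3c1* had an adjusted p of rho from 0.0549 to 0.0736. Relations of *Pgr*, *Nr3c2* and *Prlr* with the VSN sum had exact permutation p of 0.495, 0.686 and 0.651. The part of these tissues in the differences among lines was not tested. No share over all genes tested is given beside these counts of lists, so they do not set the receptors apart from other genes. The lists are also not separate measures. Control line 5 had the lowest VSN sum and the highest smooth muscle and endothelial sums, and HR line 8 the reverse. In the red blood cell list 4 of 5 genes were at 0 counts, and the fat cell sum was 0.031 to 0.544 CPM per library. The plot of receptor levels beside marker sums shows *Esr1*, *Nr3c1*, *Ghr* and *Lepr* in each library.

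**Figure D4:**
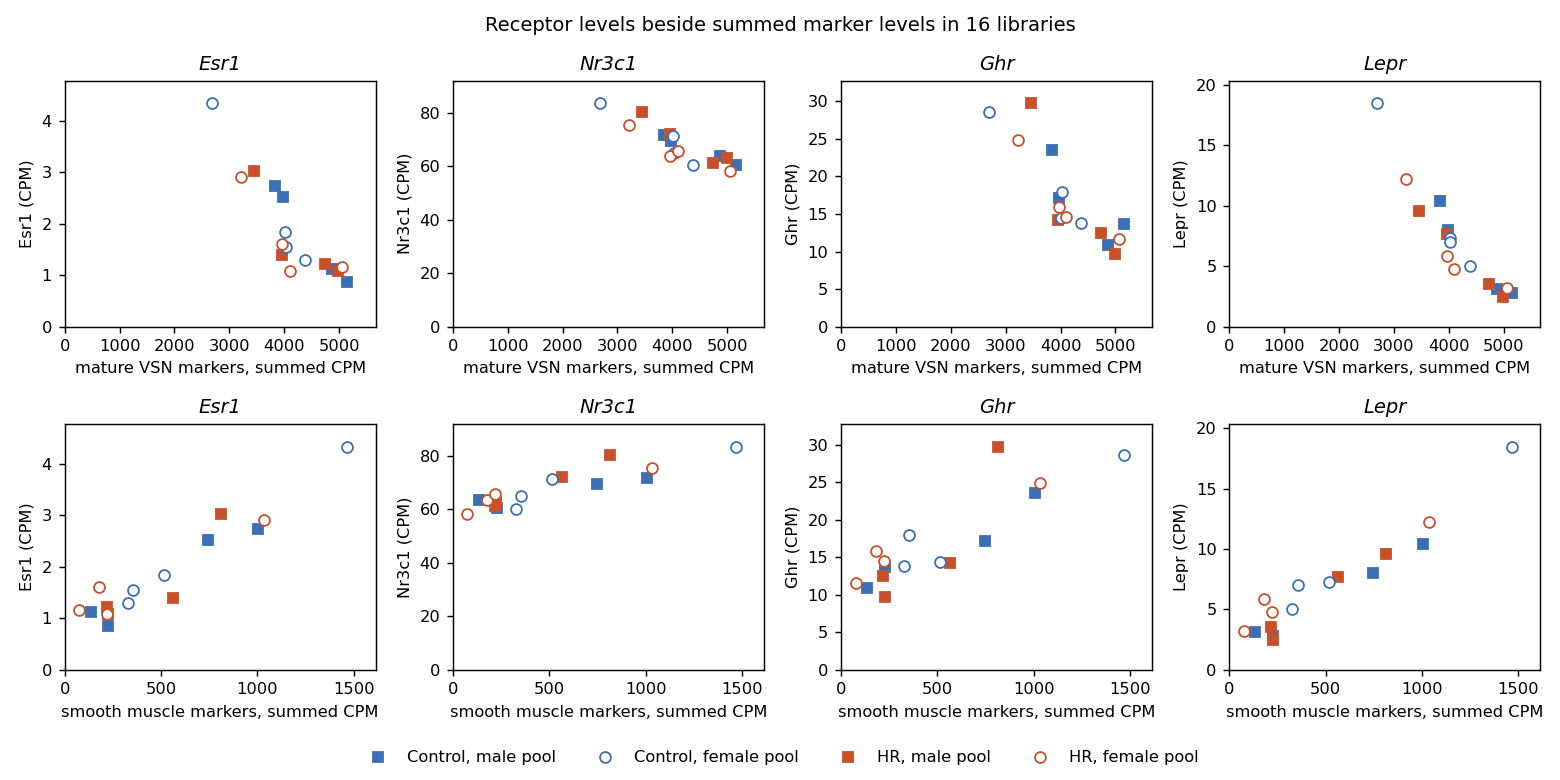
CPM of 4 receptors against the summed CPM of mature VSN markers (top) and of smooth muscle markers (bottom), with each point 1 library, colour for linetype and filled squares for male pools. The female pool of Control line 5 has the lowest VSN sum (2688 CPM) and the highest smooth muscle sum (1468 CPM), and *Esr1*, *Nr3c1* and *Lepr* are highest there.

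Female and male pools were compared with linetype as a covariate. Per the study's methods a sequencing lane held 8 libraries and each deposited table holds the 8 libraries of 1 sex, so if lanes were filled by sex, lane and sex cannot be told apart. No receptor had an adjusted p under 0.05 in edgeR's test, beside 31 of 16507 genes (0.188%), and with line as a block 87 of 17181 genes passed (0.506%) and again no receptor. DESeq2 also gave 0 adjusted calls and 1 unadjusted. *Pgr* was the 1 receptor with an unadjusted p under 0.05, beside 8.08% of genes, 4.93% higher and 3.14% lower in females. It stood at 3.95 ± 0.874 CPM (SD, n = 8 lines) in female pools and 2.98 ± 0.794 CPM in male pools and was higher in females in 7 of 8 lines, the exception being Control line 1. Its log2 fold change of females against males was 0.39 (SE 0.18, unadjusted p = 0.0483 and adjusted p = 0.614 by edgeR), and the difference was largest in Control line 5 and close to 0 in Control lines 2 and 4. Without the female pool of Control line 5 its unadjusted p was 0.0892 (log2 fold change 0.35), and with each line left out in turn it ran from 0.00874 (without Control line 2) to 0.139 (without Control line 5).

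*Nr3c2* was lower in females in 7 of 8 lines, with 15.4 ± 2.25 CPM in female and 17.7 ± 2.57 CPM in male pools and a log2 fold change of -0.20 (SE 0.11, adjusted p = 0.699 by edgeR). *Prlr* was higher in females in 7 of 8 lines, with 3.40 ± 0.672 CPM against 2.85 ± 0.337 CPM and a log2 fold change of 0.25 (SE 0.13, adjusted p = 0.684). Without the female pool of Control line 5, the log2 fold change of *Prlr* was 0.17, and its unadjusted p by edgeR went from 0.0779 to 0.183. That of *Nr3c2* was then -0.18, and its unadjusted p went from 0.0885 to 0.137. With line as a block, the unadjusted p by edgeR was 0.0267 for *Pgr*, 0.0318 for *Nr3c2* and 0.0585 for *Prlr*, beside 16.4% of genes with an unadjusted p under 0.05, and the adjusted p were 0.242, 0.261 and 0.32. *Nr3c1* stood at 68.0 ± 8.41 CPM in female and 67.8 ± 6.88 CPM in male pools, and its interval of the female to male ratio ran from 0.89-fold to 1.13-fold. The plot of female minus male differences gives each line's value.

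**Figure D5:**
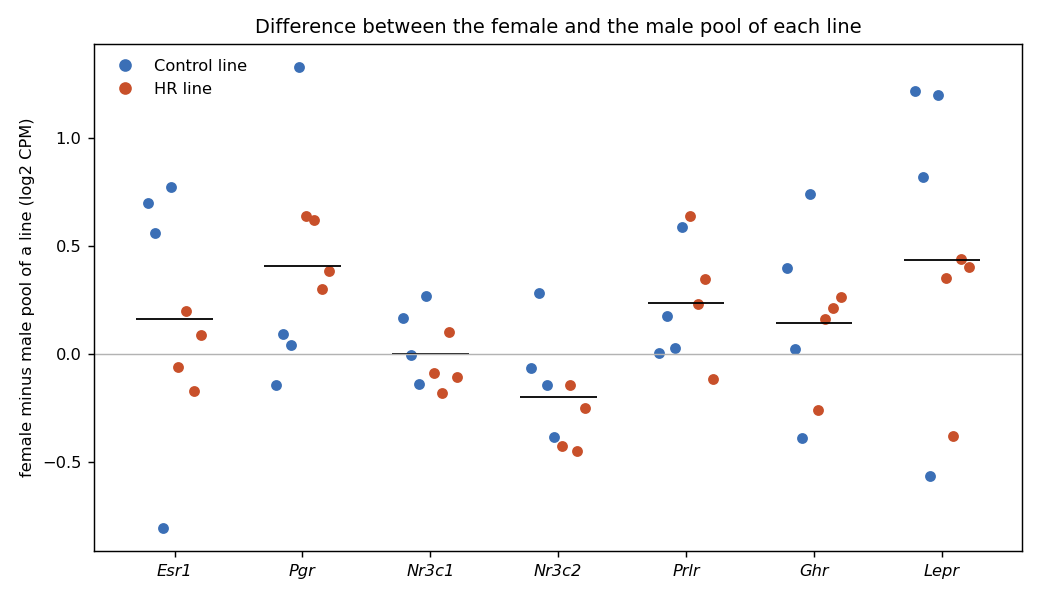
Female minus male pool of each line in log2 CPM for the 7 receptors tested, with each point 1 line and a bar at the mean of 8 lines. *Pgr* and *Prlr* lie above 0 in 7 of 8 lines and *Nr3c2* below 0 in 7 of 8, while *Esr1*, *Nr3c1*, *Ghr* and *Lepr* spread to both sides.

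Likeness between receptors was measured by Pearson r of log2 CPM over the 16 libraries after the mean of each sex was removed, as a description, since libraries share lines and depth. *Esr1* and *Lepr* had an r of 0.934, *Ghr* and *Lepr* 0.903, *Esr1* and *Ghr* 0.893 and *Nr3c1* and *Lepr* 0.916. Over the 15 libraries without the female pool of Control line 5 these were 0.913, 0.879, 0.868 and 0.889. *Pgr* and *Prlr* had an r of 0.424 that was 0.00 in males and 0.726 in females, and *Nr3c2* had an r of -0.50 with *Pgr*. Against all genes tested, the 3 genes most like *Esr1* were *Vwf*, *Abcg2* and *Fbn1*, each with an r of 0.97. *Vwf* encodes von Willebrand factor of endothelium, and *Fbn1* the extracellular matrix protein fibrillin-1. The nearest to *Ghr* were *Ccm2l*, *Postn* and *Col6a2* (0.97 each), of which the last 2 encode matrix proteins, and the nearest to *Lepr* were *Kitl*, *Lpp* and *Fblim1* (0.98 each). *Rps6ka3*, *Sorbs2* and *Utrn* lay closest to *Nr3c1* (0.96 to 0.97). For *Prlr* the list was *Vmn2r39*, *Tbc1d8b* and *Vmn2r33* (0.86 to 0.88), with 2 vomeronasal receptor genes among them. *Pgr* had *Hspbap1*, *Tada1* and *Upf1* (0.82 to 0.83), and *Nr3c2* had *Plch1*, *Mbd5* and *Eda* (0.82 to 0.86).

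Other genes of these hormone systems gave no adjusted call in HR against Control. The lists held 13 other receptors tested, all nuclear but the membrane oestrogen receptor *Gper1*, 12 chaperones and coregulators and 8 enzymes of steroid synthesis and conversion. They also held 14 glucocorticoid response genes, 7 oestrogen and progesterone response genes, 18 genes of JAK-STAT signalling, 4 hormone ligands and 18 other peptide hormone receptors. In each list 0 were called. Median log2 fold changes lay between -0.075 for the ligands and 0.016 for the glucocorticoid response genes, beside a median of 0.0025 over all genes tested. At an unadjusted p under 0.05 there was 1 of the 91 different genes tested besides the receptors (1.1%), beside 3.3% of all genes. It was *Npy2r*, a neuropeptide Y receptor with 2 to 38 counts per library (log2 fold change -0.65, unadjusted p = 0.0489 by edgeR). The steroid enzymes covered a wide range of levels. *Cyp11a1*, which opens steroid synthesis, had 4 to 55 counts per library, *Cyp17a1* at most 7, and *Cyp19a1*, the aromatase that makes oestrogens, at most 1. Among enzymes that convert steroids, *Hsd17b2*, which inactivates oestradiol and testosterone, had 658 to 3845 counts, *Srd5a1*, a steroid 5-alpha-reductase, 298 to 1801, *Hsd11b1*, which regenerates active glucocorticoids, 60 to 307, and *Hsd11b2*, which inactivates them, at most 26.

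Of the ligands, prolactin (*Prl*) and leptin (*Lep*) reached at most 2 counts in a library. *Gh*, the growth hormone gene, had 3 to 67 counts and differed among lines, from 0.332 CPM in Control line 5 to 1.24 CPM in Control line 2 (adjusted p = 0.0463 by edgeR). With its male pool alone, Control line 5 stood at 0.473 CPM of *Gh* and was still the lowest line. *Igf2* was the most counted ligand, at 51.0 to 83.9 CPM over lines, with no call among them (adjusted p = 0.368). Below the cytokine receptors, *Jak1*, a Janus kinase, stood at 1597 to 1853 CPM over lines, and 2 of 18 JAK-STAT genes differed among lines, a smaller share than the 25.6% of all genes. *Stat5a*, a transcription factor downstream of prolactin and growth hormone, ran from 4.58 CPM in HR line 7 to 9.02 CPM in HR line 3 (adjusted p = 0.0189).

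Calls among lines in the remaining lists are read beside the 25.6% of all genes, and the filter on low counts passed more genes in this test. They were 4 of 13 in the list of nuclear receptors with the membrane receptor *Gper1* (*Thrb*, *Rarb*, *Esrrg*, *Gper1*) and 0 of 12 chaperones and coregulators. Of steroid enzymes 4 of 11 were called (*Cyp11a1*, *Hsd17b2*, *Srd5a1*, *Akr1c18*), and of glucocorticoid response genes 2 of 14 (*Klf9*, *Errfi1*). Of oestrogen and progesterone response genes 3 of 7 were called (*Xbp1*, *Wnt4*, *Nr2f2*), and of other peptide hormone receptors 9 of 22. *Thrb*, a thyroid hormone receptor, ran from 12.01 CPM in Control line 2 to 24.7 CPM in Control line 5, and *Esrrg*, an oestrogen-related orphan receptor, from 1.49 CPM in HR line 8 to 5.69 CPM in HR line 3. *Klf9*, which glucocorticoids induce in many cells, ran from 25.1 CPM in Control line 2 to 50.9 CPM in Control line 5. With the male pool alone for Control line 5, the highest line means were 22.4 CPM for *Thrb* and 43.8 CPM for *Klf9*. Among the peptide hormone receptors, *Adipor2*, an adiponectin receptor, ran from 48.9 CPM in HR line 8 to 182 CPM in Control line 5 (adjusted p = 0.00162 by edgeR), *Pth1r* from 10.9 to 32.1 CPM, *Glp1r* from 0.44 to 2.36 CPM and *Lifr* from 58.2 to 107.7 CPM. Without the female pool of Control line 5 the highest were 142.9 CPM for *Adipor2* and 2.48 CPM for *Glp1r*. The other 5 were *Igf2r*, *Crhr1*, *Crhr2*, *Npy2r* and *Hcrtr1*.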

How the data were processed

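RNA of 16 VNO pools, 1 male and 1 female pool of 3 mice for each of 8 lines, was depleted of ribosomal RNA, and directional libraries were sequenced as single-end reads of 75 nucleotides. The authors aligned reads to GRCm38 with STAR 2.6.1d, accepting no mismatch and no read with more than 1 location, so reads that cross a base at which a line differs from the reference are lost. Raw counts per gene and RPKM values were deposited by the authors in 1 table for each sex. The counting tool, the annotation and the use of strand are not given in the sources used here. The RPKM tables were scaled separately, and levels of different genes were therefore compared within a library. The male table also lists reads that are unmapped (16.1% to 17.7%), in no gene (16.7% to 18.5%) or ambiguous (0.837% to 1.09%), and these were left out.

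Tests on counts used edgeR 4.0.16 under R 4.3.3 (quasi-likelihood test, TMM, filterByExpr at a minimum count of 10, 95% intervals), with DESeq2 1.42.0 and limma 3.58.1 as alternatives, and adjusted p are Benjamini-Hochberg values over all genes tested (threshold 0.05). A prior count of 2 entered log2 CPM. Exact tests over lines, figures and tables used scipy 1.17.1, pandas 2.3.3, numpy 2.4.6 and matplotlib 3.10.9 under Python 3.11.15. Scripts were tested on simulated data. The receptors, gene lists and marker lists were chosen with earlier results of these data known. Named beside the receptors are, from each list, every gene with an adjusted p under 0.05 and otherwise the 3 with the smallest p in HR against Control where a value is of use, and the 3 genes most like each receptor. Values of 1 gene counted in the JAK-STAT list are not reported here. Deviations of the male and female pools of a line from group means correlated across genes in each line (0.321 to 0.708). The main edgeR fits of HR against Control, of sex and of the interaction had no line term. Line as a block, which pairs the 2 pools, was an alternative for sex and the interaction. Gene positions come from GENCODE M21. Depth was 15998552 to 70875276 counts, at which *Esr2* had 0 to 9 counts per library and every other receptor at least 25.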

Additional observations from a re-analysis of the deposited data

Results flagged for a closer look

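Of 32 combinations of a receptor with a group of 4 libraries, 1 held a library far from the other 3, where chance gives about 1 in 20. *Nr3c2*, the mineralocorticoid receptor, stood at 11.5 CPM in the female pool of HR line 7, beside 15.5, 16.1 and 15.8 CPM in the female pools of HR lines 3, 6 and 8. The gap to the nearest library was 0.89 of the range of the group on the log2 scale, above the 95% critical ratio for groups of 4. The male pool of HR line 7 stood at 15.7 CPM, the lowest of the 4 HR male pools.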

How the results depend on the processing

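The receptors kept 0 adjusted calls in HR against Control, within each sex, in the interaction and in females against males under every alternative run. Counts over all genes moved more. DESeq2 called 30 genes in HR against Control, 13 in males, 6 in females, 185 between the sexes and 7145 among lines. Line sums and limma-voom with a random effect of line each called 0 in HR against Control. Without a filter on low counts 19 genes were called between the sexes, and with line as the replicate block, which pairs the 2 pools of a line, 87. Agreement of the 2 pools was called for 1133 genes after linetype means were removed. The permutations of that test still mixed HR and Control lines, so its p may be too small.

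With lines or the female pool of Control line 5 left out, calls ranged from 1 to 17 in HR against Control, 0 to 1 in males, 0 to 2 in females, 13 to 25 between the sexes, 2559 to 4534 among lines and 0 to 0 for agreement, where 7 lines remain. Among lines, 1 to 3 receptors were called, *Esr1* at adjusted p of 0.0093 to 0.0519 and *Lepr* at 0.0098 to 0.0643. Fitted log2 fold changes of HR against Control then ranged from -0.67 to 0.10 for *Esr1*, -0.42 to 0.10 for *Ghr*, -0.72 to 0.055 for *Lepr*, -0.090 to 0.044 for *Nr3c1*, -0.084 to 0.073 for *Nr3c2* and -0.00069 to 0.22 for *Prlr*. Differences of line means ranged from -0.51 to 0.080, -0.37 to 0.078, -0.62 to 0.024, -0.087 to 0.040, -0.082 to 0.077 and -0.0012 to 0.22 for the same genes. Females against males ranged from -0.092 to 0.31 for *Esr1*, -0.029 to 0.20 for *Ghr* and -0.046 to 0.029 for *Nr3c1*, which stood at 0.0029 in the report and at -0.0017 by DESeq2, -0.00035 with RLE size factors, -0.0029 without a filter and -0.00088 with the block. The r of the 2 pools ranged from -0.21 to 0.58 for *Pgr* and -0.47 to 0.61 for *Prlr*. The causes were not tested.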
